A study of Mus musculus with 29 samples.

Results

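Sephs2 and 9 other genes of selenoprotein synthesis were followed through blood stem cells and the bone marrow niche. The 10 genes are Sephs2, Sephs1, Sepsecs, Secisbp2, Eefsec, Gpx1, Gpx3, Gpx4, Txnrd1 and Txnrd2. They were taken by symbol from the Ensembl identifiers of the deposited count tables, and all 10 were present among the 38924 genes of the stem cell table and the 18194 genes of the niche table. The set was chosen by the measured Sephs2 level in the stem cell comparison of niche genotypes, where it stood out, so the Sephs2 values of that comparison are given as a description and without a test.

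The study profiled LSK cells (blood progenitors sorted as negative for lineage markers and positive for Sca-1 and Kit) that were transplanted and regenerated in a wild-type (WT) niche, 6 libraries, or in a niche haploinsufficient for Wnt5a, 5 libraries. Endothelial (EC), osteoblastic (OBC) and mesenchymal (MSC) niche cells were profiled from niches of both genotypes, with 3 libraries per population and genotype. All samples carry the strain label 129Ly5.1, genotype refers to the niche and not to the LSK cells, and all cells were sorted by flow cytometry. LSK libraries were made with Smart-seq2, a full-length cDNA method, and niche libraries with a pooled method that counts unique molecular identifiers (UMIs). The labels do not say whether libraries of 1 group, or of different niche populations, come from separate animals. The p-values therefore measure the spread between these libraries, and the niche fit treats all of them as independent. The age of the animals, the allele behind the haploinsufficiency and the time after transplantation are details not given in the sources used here.

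Selenoproteins carry selenocysteine, an amino acid that is inserted at a UGA codon which elsewhere ends translation. Selenophosphate synthetase (Sephs2) makes the activated selenium donor, Sepsecs uses it to form selenocysteine on its own transfer RNA, and Secisbp2 with the elongation factor Eefsec delivers that transfer RNA to the ribosome. Sephs2 is itself a selenoprotein, while its paralog Sephs1 has no selenocysteine. Among the products, glutathione peroxidases (Gpx1, Gpx3, Gpx4) remove peroxides and thioredoxin reductases (Txnrd1 in the cytosol, Txnrd2 in mitochondria) keep thioredoxin reduced.

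The coding sequence around the selenocysteine codon is shown for the 6 members that are selenoproteins, because it separates the genes that need the pathway from those that only serve it. It was read 5′ to 3′ from GENCODE M21 transcripts (GRCm38), with the selenocysteine codon in capitals; each stretch holds 42 bases before the codon and at most 15 after it.
Sephs2: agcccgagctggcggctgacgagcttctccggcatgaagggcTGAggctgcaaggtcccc
Gpx1: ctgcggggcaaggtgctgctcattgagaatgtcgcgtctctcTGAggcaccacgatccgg
Gpx3: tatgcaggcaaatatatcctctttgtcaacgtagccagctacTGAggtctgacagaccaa
Gpx4: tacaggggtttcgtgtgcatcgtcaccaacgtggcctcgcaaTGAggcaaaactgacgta
Txnrd1: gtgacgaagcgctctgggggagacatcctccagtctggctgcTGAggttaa
Txnrd2: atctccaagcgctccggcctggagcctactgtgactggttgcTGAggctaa

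In all 6 of these genes the codon after TGA starts with GG, against 12 of the 24 mouse genes with an annotated selenocysteine codon. In Sephs2 the TGA is codon 63 of 452, on chromosome 7 at 127273731 to 127273733 on the minus strand, inside the only exon of the gene (chr7:127271879-127274055). Gpx1 carries it at codon 47 of 201, Gpx3 at codon 73 of 226 and Gpx4 at codon 73 of 197. The reductases carry it as the codon before the last, with 1 residue after it. The map of the transcripts shows these positions.

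**Figure D1:**
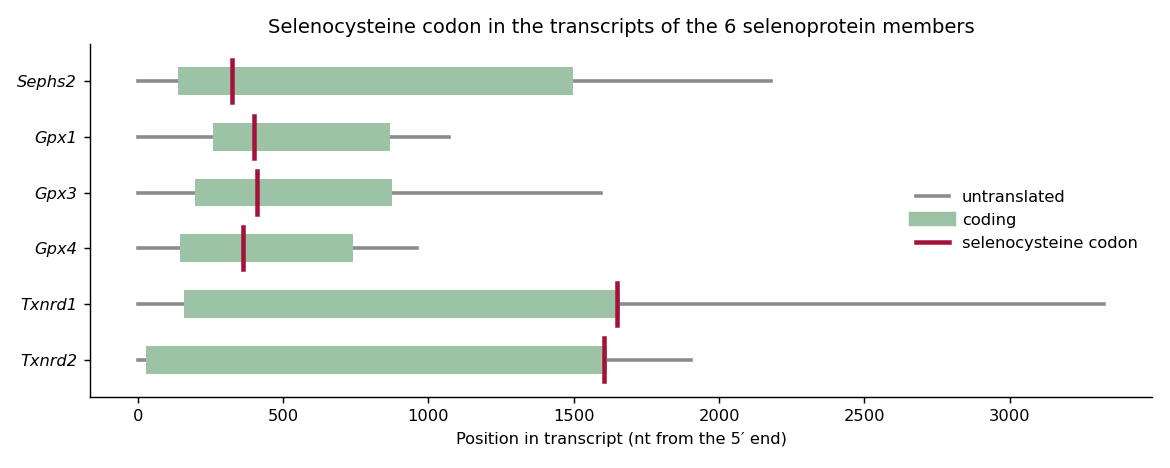
Position along the transcript in nucleotides for the 6 selenoprotein members; grey lines are untranslated, green boxes coding, and the red bar is the selenocysteine codon. The bar lies in the first part of the coding sequence in Sephs2, Gpx1, Gpx3 and Gpx4 and at its end in Txnrd1 and Txnrd2.

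LSK libraries held 1254553 to 5775459 reads in genes and niche libraries 10635 to 117989 UMIs. All 7 LSK markers were detected in both LSK groups, with a summed level of 1730 to 2528 CPM (counts scaled to a common library total) in WT and 1804 to 2449 CPM in Wnt5a. Satellite repeats took 0.0836% to 0.417% of reads in LSK WT and 0.341% to 6.73% in LSK Wnt5a, and mitochondrial genes 1.77% to 3.39% and 2.54% to 8.96%. LSK Wnt5a replicate 5 stood apart with 8.28% immunoglobulin reads. Wnt5a itself had 0 to 1 reads in each LSK WT library and 0 to 5 in each LSK Wnt5a library, which does not check the niche genotype because these are not niche cells. In the niche, endothelial markers were also high in MSC (6267 to 10766 CPM, against 7778 to 13177 CPM in EC). Mesenchymal markers were also high in OBC, with summed levels of 9380 to 14686 CPM in WT and 5165 to 12897 CPM in Wnt5a. In MSC itself they reached 5191 to 7691 CPM in WT and 4198 to 10287 CPM in Wnt5a, and in EC 1553 to 2696 CPM. Of the 8 bone markers, 8 were detected in OBC WT and 7 in OBC Wnt5a. The marker at 0 in OBC Wnt5a was Runx2, in libraries of 13726 to 17874 UMIs, and it was also at 0 in MSC WT and both EC groups.

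Sephs2 reads were present in every LSK library and were few in every library from a Wnt5a niche. The WT libraries held 18, 35, 113, 199, 51 and 87 Sephs2 reads (replicates 1 to 6) and the Wnt5a libraries 8, 7, 4, 1 and 4 (replicates 1 to 5). On the scale of library-scaled counts (CPM with TMM-scaled totals), WT libraries ran from 14.4 to 57.3 CPM with a median of 17.02, and Wnt5a libraries from 0.754 to 2.76 CPM with a median of 2.004. The lowest WT library lay above the highest Wnt5a library, and WT replicates 4 and 6 were higher than the other 4 WT libraries.

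The mean level of Sephs2 was 25.2 ± 16.9 CPM (SD, n = 6) in WT and 1.95 ± 0.769 CPM (SD, n = 5) in Wnt5a, a log2 difference of -3.63 in the fit over all genes. Leaving out any single library gave -3.79 to -3.21, which adds no support because Sephs2 was chosen for its value in this contrast. Groups that do not overlap, with Wnt5a below WT, were found for 203 of 13098 tested genes (1.55%), and since Sephs2 was chosen for this contrast its place among them is not a finding. In bulk samples, fewer cells that express a gene and less RNA per cell cannot be told apart.

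Set against its paralog in the same library, there were 9.04 to 42.8 Sephs2 reads per 100 Sephs1 reads in WT, and 0.676 to 2.40 in Wnt5a. These are the same Sephs2 reads on another scale, so the ratio adds no support.

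Sephs1, the paralog that lacks selenocysteine, ran from 129 to 162 CPM in WT (median 140) and measured 115, 110, 118, 112 and 158 CPM in Wnt5a replicates 1 to 5. The first 4 Wnt5a libraries lay below all WT libraries, and replicate 5 lay within the WT range. The log2 difference was -0.21 (SE 0.16), with an adjusted p of 0.510 by edgeR's quasi-likelihood test.

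**Figure D2:**
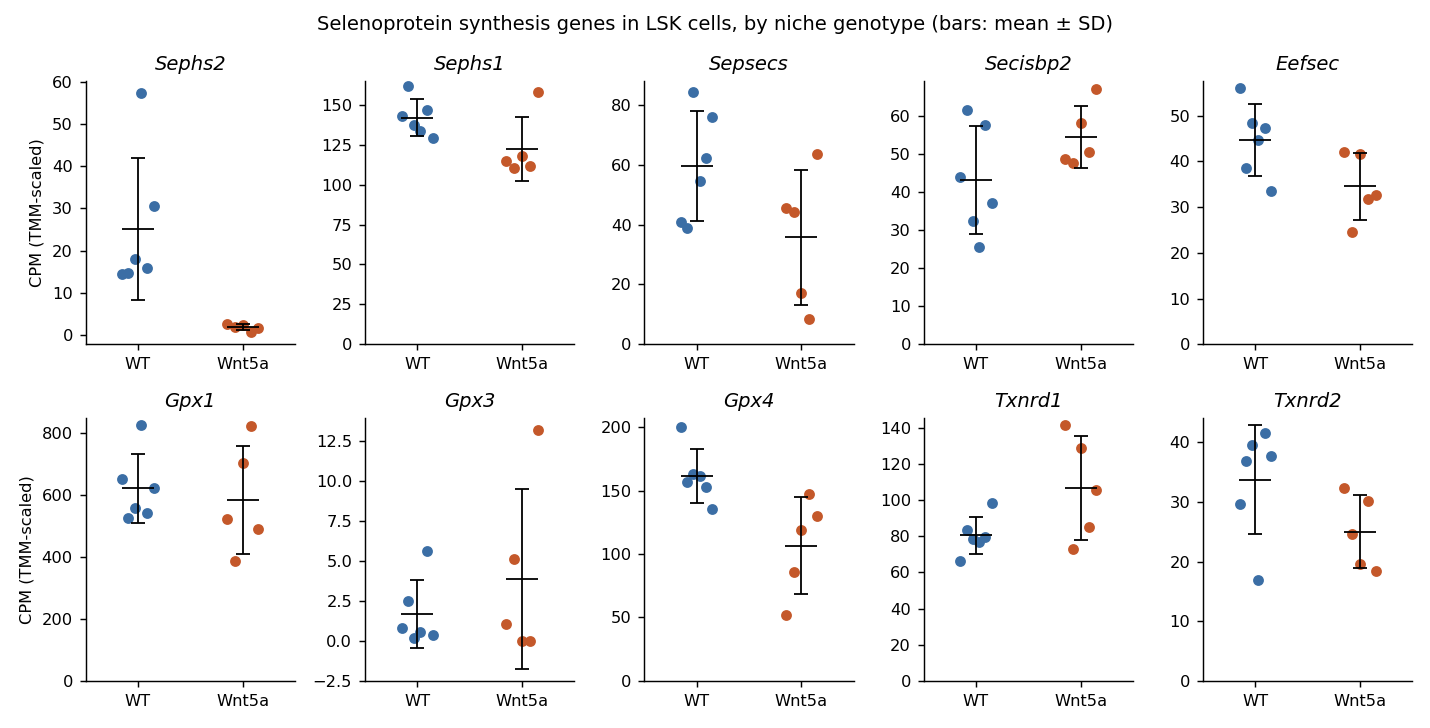
CPM in each LSK library for the 10 genes by niche genotype (6 WT, 5 Wnt5a), each panel with its own linear axis; horizontal lines are means and error bars 1 SD. Sephs2 is the panel in which the groups do not overlap, with Wnt5a libraries at 0.754 to 2.76 CPM and WT libraries at 14.4 to 57.3 CPM.

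Among the other members, none passed the test between LSK from Wnt5a and WT niches. 3 of the 13098 tested genes (0.0229%) passed an adjusted p of 0.05, so the comparison called few genes of any kind. 8 members other than Sephs2 entered the test, and Gpx3 did not pass the filter on low counts. At an unadjusted p under 0.05 there were 2414 genes over the whole table.

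Sepsecs, the enzyme that completes selenocysteine on its transfer RNA, spanned 39.0 to 84.2 CPM in WT (median 58.5). In Wnt5a it measured 45.5, 44.1, 17.1, 8.30 and 63.5 CPM. Replicates 3 and 4 were below all WT libraries and the others overlapped them. The log2 difference was -0.72 (SE 0.40, adjusted p = 0.342 by edgeR).

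Eefsec, the elongation factor for selenocysteine, spanned 33.4 to 56.0 CPM in WT (median 45.9) and 24.6 to 42.1 CPM in Wnt5a (median 32.6). Secisbp2, which binds the selenocysteine insertion element in the 3′ untranslated region, spanned 25.6 to 61.6 CPM in WT (median 40.5) and 47.5 to 67.0 CPM in Wnt5a (median 50.5). The groups overlapped for both genes, with differences of opposite sign. On the log2 scale Eefsec differed by -0.37 (SE 0.25, adjusted p = 0.443) and Secisbp2 by 0.34 (SE 0.27, adjusted p = 0.513), both by edgeR.

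Gpx4, which reduces lipid peroxides in membranes, spanned 135 to 200.03 CPM in WT (median 159). In Wnt5a it measured 51.7, 85.6, 119, 147 and 130.03 CPM. Replicates 1, 2, 3 and 5 lay below all WT libraries and replicate 4 within their range. The log2 difference was -0.60 (SE 0.23, adjusted p = 0.194 by edgeR).

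The Gpx4 count is uncertain, because 68.9% of the 50-base words of its transcript also occur in 2 other annotated genes, among them the pseudogene Gpx4-ps2. The same share was 0% for each of the other 9 members. Txnrd1 overlaps Eid3 on the same strand and Sephs2 overlaps the predicted gene Gm44729 on the opposite strand. Whether strand was used in counting is not given in the sources used here.

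Gpx1, the abundant cytosolic peroxidase, spanned 525 to 827 CPM in WT (median 591) and 388 to 821 CPM in Wnt5a (median 521). Gpx3, a secreted peroxidase, had 1, 6, 1, 2, 18 and 1 reads in WT and 3, 18, 0, 0 and 30 in Wnt5a. The Gpx1 groups overlapped over most of their range, with a log2 difference of -0.09 (SE 0.20, adjusted p = 0.850 by edgeR). For Gpx3 the 0 reads in Wnt5a replicates 3 and 4 allow a level of up to 1.83 and 2.26 CPM (3 reads per library). This is above the WT median of 0.688 CPM, so a lower level in these libraries could not be read at this depth. Wnt5a replicates 1, 2 and 5 measured 1.03, 5.15 and 13.2 CPM, against 0.160 to 5.63 CPM in WT. The groups overlapped, and the difference was not tested.

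Txnrd1 spanned 66.4 to 98.2 CPM in WT (median 79.0) and 73.0 to 142 CPM in Wnt5a (median 105). Txnrd2 spanned 16.99 to 41.6 CPM in WT (median 37.3) and 18.5 to 32.4 CPM in Wnt5a (median 24.6). In Txnrd1 replicates 1, 3 and 5 of Wnt5a lay above all WT libraries, and in Txnrd2 the groups overlapped. The log2 differences were 0.41 (SE 0.21, adjusted p = 0.308) and -0.43 (SE 0.31, adjusted p = 0.468), both by edgeR.

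Levels of different genes were set side by side per kilobase of annotated exon, which is only approximate where a gene has several isoforms. In LSK WT, Gpx1 led with 431 ± 78.2 CPM per kb (SD, n = 6), followed by Gpx4 at 93.7 ± 12.4 and Sephs1 at 24.0 ± 1.96 CPM per kb. These 3 genes did not overlap one another or the rest over the 6 libraries. Eefsec (15.97 CPM per kb), Sephs2 (11.6), Txnrd1 (11.4), Secisbp2 (9.30), Sepsecs (8.52) and Txnrd2 (7.66) followed, each overlapping the next, and Gpx3 stood below them at 0.922 CPM per kb.

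In LSK Wnt5a the order again opened with Gpx1 (406 CPM per kb), Gpx4 (61.8) and Sephs1 (20.7). Sephs2 was the last of the 10 at 0.893 ± 0.353 CPM per kb (SD, n = 5), and its range overlapped that of Gpx3. By its mean it had held rank 5 of 10 in WT. There replicates 4 and 6, at 26.3 and 14.1 CPM per kb, lay above the other libraries at 6.62 to 8.31. The rank by the mean therefore leans on these libraries. The change of rank restates the difference for which Sephs2 was chosen and adds no support.

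The wider pathway was read from 4 lists: selenoproteins, selenocysteine machinery with selenium supply, cysteine-containing relatives with peroxiredoxins, and thioredoxin, glutathione and antioxidant partners. Without Sephs2, 55 genes of these lists were tested in LSK and 0 passed an adjusted p of 0.05 by edgeR, beside 0.0229% of all genes. At an unadjusted p under 0.05 there were 10 of the 55, against 18.4% of all genes. DESeq2 called 2 of them, Gpx7 and Prdx6, beside 5.18% of all genes, and limma voom 0. The median log2 difference over all tested genes was 0.02, with 48.3% of genes negative.

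Of the selenoproteins, 18 of 23 were tested, with 7 positive and 11 negative log2 differences and a median of -0.08. The smallest p-values belonged to Gpx4, to Selenok (0.45, SE 0.19, adjusted p = 0.228 by edgeR), which resides in the endoplasmic reticulum, and to Txnrd1. Gpx1, Selenow and Selenoh had log2 differences of -0.09 (SE 0.20), -0.08 (SE 0.28) and -0.14 (SE 0.25). Selenow and Selenoh were picked as mRNAs known to decline when selenium is scarce, and not by their p-values. Whether selenium was scarce in these cells was not tested.

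Of the machinery genes, 11 of 11 were tested, with 5 positive and 6 negative differences and a median of -0.04. Rpl30, a ribosomal protein that also binds the insertion element, spanned 112 to 199 CPM in WT and measured 57.9, 87.0, 86.2, 150.07 and 115 CPM in Wnt5a, a log2 difference of -0.66 (SE 0.23, adjusted p = 0.155 by edgeR). Scly, which frees selenium from selenocysteine, measured 54.1, 32.6, 52.6, 11.3 and 11.5 CPM in Wnt5a against 9.21 to 30.6 CPM in WT. Its first 3 Wnt5a libraries were above every WT library and the other two inside the WT range, and the log2 difference was 0.86 (SE 0.46, adjusted p = 0.320 by edgeR).

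Among the cysteine relatives, 10 of 13 were tested, with 2 positive and 8 negative differences and a median of -0.23. Gpx7, a peroxidase of the endoplasmic reticulum with cysteine in place of selenocysteine, measured 8.80 to 25.6 CPM in WT and 7.59, 7.16, 2.44, 0 and 6.17 CPM in Wnt5a. Apart from Sephs2, it was the only gene of the lists whose groups did not overlap, where 1.55% of all tested genes lay wholly lower and 1.26% wholly higher in Wnt5a. Its log2 difference was -1.93 (SE 0.59, adjusted p = 0.120 by edgeR).

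Prdx6, a peroxiredoxin that reduces phospholipid hydroperoxides, measured 191 to 342 CPM in WT and 157, 129, 77.6, 130 and 198 CPM in Wnt5a. Only Wnt5a replicate 5 reached the WT range. The log2 difference was -0.87 (SE 0.23, adjusted p = 0.0904 by edgeR), and Prdx5 differed by -0.53 (SE 0.21, adjusted p = 0.205 by edgeR).

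Among the antioxidant partners, 16 of 16 were tested, with 9 positive and 7 negative differences and a median of 0.01. Sod1, the cytosolic superoxide dismutase, differed by 0.67 (SE 0.22, adjusted p = 0.137), Gclm, a subunit of the enzyme that starts glutathione synthesis, by 0.40 (SE 0.17, adjusted p = 0.221) and Sod2 by 0.37 (SE 0.16, adjusted p = 0.232), all by edgeR. The plot of log2 differences by list shows how far each gene lay from 0.

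**Figure D3:**
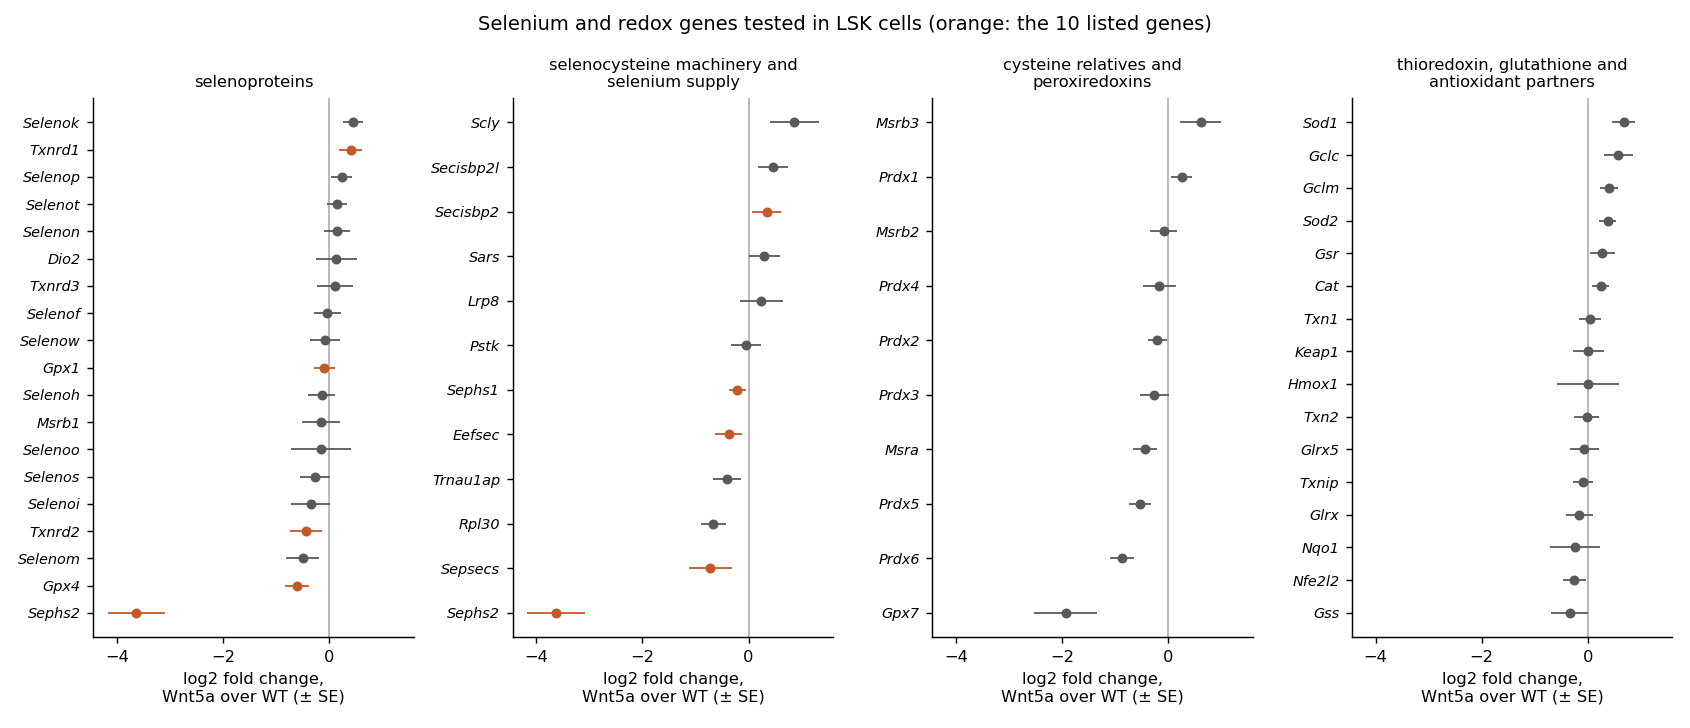
Log2 fold change of Wnt5a over WT in LSK with its SE, for each tested gene of the 4 lists. Orange marks the members, without Gpx3, which did not pass the filter on low counts. Sephs2 stands in both lists it belongs to. Sephs2 at -3.63 and Gpx7 at -1.93 lie farthest from 0. Sephs2, chosen for this contrast, is shown with its bar as a description and not as a test.

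The libraries in the comparison were not alike. 2 of the 5 Wnt5a libraries (replicates 4 and 5) carry 3-digit numbers in their labels and all other LSK libraries 4-digit numbers, whose meaning is not given in the sources used here. With the 4-digit libraries only (6 WT, 3 Wnt5a), 882 of 13910 genes (6.34%) passed by edgeR, among them 6 of the 55 pathway genes. Gpx4 was then lower by edgeR (log2 difference -0.93, SE 0.25, adjusted p = 0.0381), as were Rpl30 (-1.03), Prdx6 (-1.07) and Prdx3 (-0.76), while Scly (1.37) and Secisbp2l (0.84), a paralog of Secisbp2, were higher. In these libraries the cysteine relatives had a median of -0.54 with 9 of 10 negative, the machinery genes -0.32 with 6 of 11, the selenoproteins -0.18 with 11 of 18 and the antioxidant partners 0.03 with 8 of 16, beside -0.02 and 50.9% over all genes. Prdx3 and Secisbp2l were named after their values were seen. Without Wnt5a replicate 5 alone, 1114 genes passed (8.32%), with Prdx3, Prdx6 and Sod1 as the pathway genes. Satellite reads took 1.80% to 6.73% in these 3 Wnt5a libraries, against at most 0.417% in WT, and the part of this difference in the calls was not tested.

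Likeness to the Sephs2 pattern was measured as Pearson correlation of log2 CPM among 11205 genes, and is a description only. Over all 11 LSK libraries, which share the same totals and the group difference for which Sephs2 was picked, the highest values belonged to Layn (0.97), Mettl3 (0.96), Zfp771 (0.95), Rad52 (0.95) and F2rl3 (0.94). Layn, a hyaluronan receptor, measured 9.13 ± 5.95 CPM in WT (SD, n = 6) and 0.520 ± 0.327 CPM in Wnt5a (SD, n = 5), and Mettl3, the catalytic subunit of the RNA adenosine methyltransferase, 8.73 ± 5.11 and 0.613 ± 0.721 CPM. Over the 6 WT libraries alone the 5 genes most like Sephs2 were others: P2ry2, Cdc42se2, Adk, Erp29 and Commd8. For the 8 other members that were measured, the correlation with Sephs2 over the 11 libraries ran from -0.65 (Secisbp2) to 0.62 (Sepsecs). Over the 6 WT libraries it ran from -0.80 (Secisbp2) to 0.84 (Gpx1), with Sepsecs at 0.28. In these libraries 4 members turned from positive to negative: Sephs1 (0.47 to -0.67), Eefsec (0.54 to -0.33), Gpx4 (0.50 to -0.35) and Txnrd2 (0.24 to -0.76). Txnrd1 turned the other way, from -0.42 to 0.28.

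Zfp771, at rank 3 of the 11205 genes in this order, is also a neighbour of Sephs2, 17076 bases away on chromosome 7. It is a zinc finger gene whose level was 33.8 ± 6.49 CPM in WT (SD, n = 6) and 14.4 ± 3.67 CPM in Wnt5a (SD, n = 5). Its log2 difference was -1.22 (SE 0.30, adjusted p = 0.0806 by edgeR). Of the 10 protein-coding neighbours within 100 kb, 9 were tested and 0 passed by edgeR, where 0.0229% of all genes did.

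Dctpp1, the nearest of them at 11170 bases, differed by -0.06 (SE 0.20, adjusted p = 0.904). Itgal, an integrin of white blood cells on the other side of Sephs2, differed by 0.65 (SE 0.23, adjusted p = 0.167), and the muscle gene Mylpf by -1.74 (SE 0.67, adjusted p = 0.189), all by edgeR. The neighbours therefore lay on both sides of 0.

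**Figure D4:**
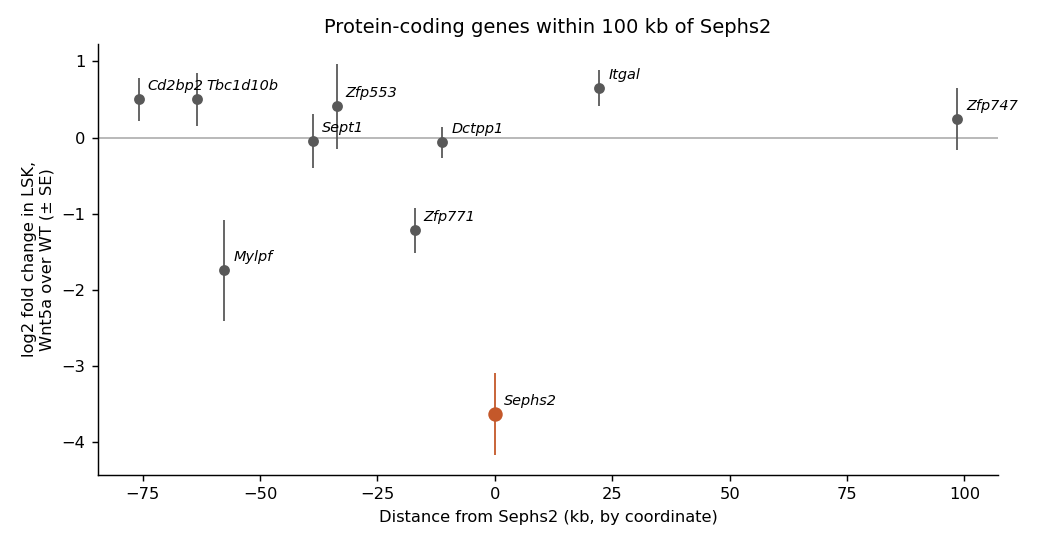
Log2 fold change in LSK (Wnt5a over WT, with SE) of the 9 tested protein-coding neighbours of Sephs2, against distance from the gene in kb. Sephs2 is in orange at 0, with its bar as a description and not as a test. Zfp771 at -1.22 and Mylpf at -1.74 are the neighbours farthest below 0, and Itgal at 0.65 lies farthest above.

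In the niche libraries 8 of the 10 members had too few UMIs to be tested. Sephs2 gave 1 UMI among 842698, in EC WT replicate 14. The 0 UMIs in 115672 from OBC and in 248173 from MSC allow up to 25.9 and 12.1 CPM on plain totals (3 UMIs over each population), and UMIs of the niche and reads of LSK are different scales, so the levels are not compared. A genotype difference in Sephs2 could not be read in any niche population at this depth.

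The other machinery members were also sparse. Over the 18 libraries Sephs1 had 14 UMIs, Sepsecs 7, Secisbp2 33 and Eefsec 8. Among the products Gpx4 had 22, Txnrd1 44 and Txnrd2 25. The Gpx4 count is uncertain here too. Of the 50-base words in the last 500 bases of its transcript, 88.9% also occur in 2 other annotated genes. Only Gpx1 (1207 UMIs) and Gpx3 (148 UMIs) passed the filter on low counts and were tested.

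Of the 2 members tested in the niche, Gpx3 differed between populations. OBC libraries measured 2787, 1669 and 769 CPM in WT and 776, 810.2 and 886 CPM in Wnt5a. MSC libraries measured 306, 115 and 63.8 CPM in WT and 292, 373 and 560 CPM in Wnt5a, and EC libraries 50.7, 38.2 and 35.9 CPM in WT and 0, 13.1 and 107 CPM in Wnt5a. All 6 OBC libraries lay above all 12 others, while EC and MSC overlapped. These levels rest on 5 to 37 UMIs per library in OBC, 2 to 16 in MSC and 0 to 4 in EC. The 0 UMIs in EC Wnt5a replicate 16 allow up to 227 CPM (3 UMIs).

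Against the mean of the other populations, Gpx3 was higher in OBC by 3.48 on the log2 scale (SE 0.36, adjusted p = 3.98e-11) and lower in EC by a log2 difference of -3.67 (SE 0.42, adjusted p = 2.68e-09), both by edgeR. The filter on low counts admitted Gpx3 through the OBC libraries, where it is high, since too few other libraries reached the minimum level. The p-values of these contrasts are therefore a description and add no support. These contrasts called many genes, 46% of those tested in OBC and 40% in EC. In MSC, where 6.73% were called, Gpx3 differed by 0.19 (SE 0.31, adjusted p = 0.787 by edgeR). Neutrophil markers also differed between these groups, with summed levels of 4443 to 15799 CPM in OBC, 1538 to 5827 CPM in MSC and 422 to 3640 CPM in EC, and their part in the Gpx3 levels was not tested.

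Between genotypes Gpx3 did not pass the test in any population. The log2 difference of Wnt5a over WT was -1.15 (SE 0.50, adjusted p = 0.435) in OBC, 1.33 (SE 0.57, adjusted p = 0.203) in MSC and -0.01 (SE 0.55, unadjusted p = 0.991) in EC, all by edgeR. Opposite signs in OBC and MSC were not shown to differ: the interaction of genotype with population had an unadjusted p of 0.00751 and an adjusted p of 0.417 by edgeR, where 0.546% of genes passed. The bone marker sum in OBC was 5536 to 17316 CPM in WT and 1392 to 4861 CPM in Wnt5a, and the neutrophil sum in MSC 1538 to 1978 CPM in WT and 3502 to 5827 CPM in Wnt5a; their part in the Gpx3 values was not tested.

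Gpx1 overlapped between the 3 niche populations. EC measured 946, 7759 and 1088 CPM in WT and 2423, 1335 and 2322 CPM in Wnt5a. OBC measured 1807, 1529.9 and 1384 CPM in WT and 1067, 2937 and 4556 CPM in Wnt5a, and MSC 1011, 846 and 2298 CPM in WT and 2991, 1558 and 3078 CPM in Wnt5a. EC WT replicate 14 was the highest of all 18 libraries. Against the mean of the other populations Gpx1 differed by 0.35 (SE 0.42, adjusted p = 0.516) in EC, -0.04 (SE 0.45, adjusted p = 0.945) in OBC and -0.31 (SE 0.43, adjusted p = 0.752) in MSC, all by edgeR. With no filter on low counts it passed in EC by edgeR (0.71, SE 0.23, adjusted p = 0.0430), where the median of all genes was 0.61 and 5.52% of genes passed, and without EC WT replicate 14 the EC difference was -0.45 (SE 0.25, adjusted p = 0.145 by edgeR).

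Gpx1 is also abundant in red blood cells, and haemoglobin transcripts took 24.3% of the UMIs of EC WT replicate 14. The library with the highest Gpx1 level in each population was also the one with the highest haemoglobin share, with 11.96% in OBC Wnt5a replicate 12 and 7.84% in MSC Wnt5a replicate 6. In EC all 6 libraries stood in the same order by both measures, and in MSC all but a pair of neighbouring ranks. In OBC the order differed: WT replicate 7 was at rank 3 for Gpx1 and 6 for haemoglobin, WT replicate 9 at 5 and 3, and Wnt5a replicate 10 at 6 and 4. The part of red-cell RNA in the Gpx1 values was not tested.

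The log2 difference of Gpx1 between genotypes was -0.71 (SE 0.66, adjusted p = 0.807) in EC, 0.82 (SE 0.77, adjusted p = 0.827) in OBC and 0.86 (SE 0.69, adjusted p = 0.555) in MSC, all by edgeR. Without EC WT replicate 14 the sign in EC turned, to 0.94 (SE 0.42, adjusted p = 0.464 by edgeR). None of these differences exceeded the spread between libraries by the test.

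**Figure D5:**
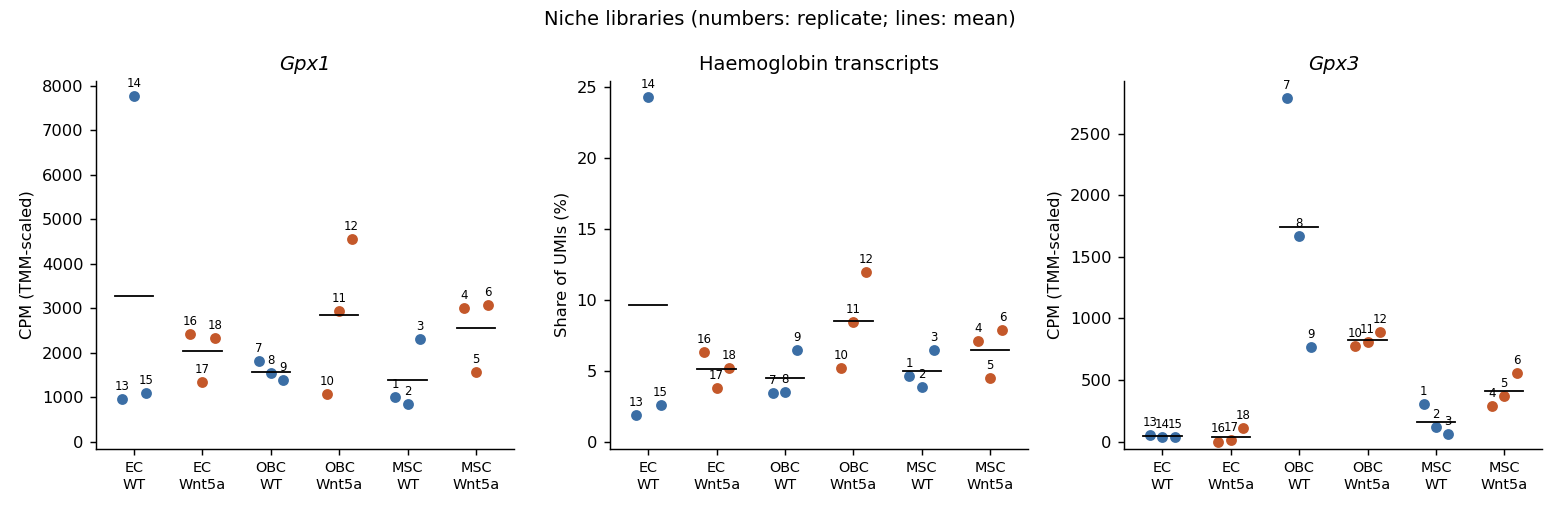
Gpx1 level (CPM), haemoglobin share of UMIs (%) and Gpx3 level (CPM) in the 18 niche libraries by population and genotype; each point is 1 library with its replicate number, and lines are means of 3. EC WT replicate 14 is the highest for Gpx1 (7759 CPM) and haemoglobin (24.3%), and the 6 OBC libraries are the highest for Gpx3.

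In all, 13 pathway genes were tested in the niche, and by edgeR 0 passed between genotypes in EC (0.364% of all genes called), OBC (1.27%) or MSC (0.455%). At an unadjusted p under 0.05 there were 2, 1 and 2 of the 13, where 8.10%, 8.37% and 18.5% of all genes were. DESeq2 called Txnip in MSC (-0.89, adjusted p = 0.0448), beside 4.09% of all genes, and 0 of the 13 in EC (0.546% of all genes) and OBC (1%). Limma voom called 0 of them in EC (0.364%), OBC (0.819%) and MSC (1%). Without EC WT replicate 14, edgeR called 3.43% of all genes in MSC and among them Glrx5 (2.60, SE 0.67, adjusted p = 0.0231), where the fit with all libraries gave 2.60 (SE 0.98, adjusted p = 0.174); Glrx5 serves iron-sulfur cluster formation and is high in red-cell precursors.

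Of the selenoproteins outside the 10 members, those with the smallest p between genotypes did not pass the test either. By edgeR, Selenok differed by -1.06 (adjusted p = 0.488) and Selenow by -0.87 (adjusted p = 0.555) in EC, Selenof by 0.89 (adjusted p = 0.709) in OBC and Selenom by -1.29 (adjusted p = 0.345) in MSC.

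Between populations, 4 of the 13 pathway genes were called in EC and 4 in OBC, near the shares of all genes (40% and 46%). Selenow was higher in EC (1.19, SE 0.32, adjusted p = 0.00304) and lower in OBC (-1.50, SE 0.46, adjusted p = 0.00669), and Selenop, the selenium carrier of plasma, was higher in EC (0.96, SE 0.29, adjusted p = 0.00681), all by edgeR. Txnip, which binds and inhibits thioredoxin, was higher in EC (1.06, SE 0.22, adjusted p = 0.000173) and lower in OBC (-1.71, SE 0.28, adjusted p = 1.52e-06), and Glrx5 was higher in OBC (2.17, SE 0.57, adjusted p = 0.00433), by edgeR. In MSC 0 of the 13 were called by edgeR, 1 having an unadjusted p under 0.05, as 19.1% of all genes had. DESeq2 called 1 of them in MSC, Txnip, beside 5.37% of all genes.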

How the data were processed

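The deposited tables hold raw counts per Ensembl gene, of reads for LSK and of UMIs for the niche. STAR, featureCounts and mm10 (GRCm38) are named per the submitters' processing notes; the sources used here do not give versions, annotation release, strand use or how UMIs were collapsed. 28 spike-in entries of the niche table were kept out of totals, and Wnt5a in the niche was not analysed here. Symbols and coordinates come from the GENCODE M21 annotation and gene name tables of GRCm38.

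Each table was fitted in edgeR 4.0.16 (R 4.3.3) with TMM scaling, filterByExpr by group (minimum count 10, minimum total 15) and a robust quasi-likelihood fit. 13098 genes were tested in LSK and 1099 in 1 fit of all 18 niche libraries, with Benjamini-Hochberg adjustment over all genes tested. SE is the log2 difference divided by the square root of the F statistic. A gene passed at an adjusted p under 0.05. Alternatives used RLE factors, no filter, DESeq2 1.42.0, limma 3.58.1 (voom), fewer libraries and fewer genes in the totals.

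LSK floors of 3 reads ran from 0.480 to 2.40 CPM. Smart-seq2 reads are not independent molecules, so floors cover counting error only. No replicate pair agreed within counting noise (lowest chi-square per degree of freedom 1.81). The members and lists were chosen with earlier results of these data known. The rule named all 10 members, list genes past the test or with the 3 smallest p-values per comparison (some niche genes are left out of the text), the 5 genes most like Sephs2 and its neighbours within 100 kb.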

Additional observations from a re-analysis of the deposited data

Results flagged for a closer look

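One library stood apart from its group among 20 groups of LSK values tested for a stray library, where about 1 in 20 groups is expected to be picked out by chance. Sephs1 measured 158 CPM in LSK Wnt5a replicate 5, while the other 4 Wnt5a libraries measured 110 to 118 CPM. This library also held 8.28% immunoglobulin reads, against 0.265% to 0.972% in the other Wnt5a libraries, and the part of that in the Sephs1 value was not tested.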

How the results depend on the processing

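No paired analysis was run, because no 2 niche libraries share a replicate number and the LSK labels give none. The labels do not say which niche libraries share an animal, so a pairing between populations is not excluded. In LSK, where 0 of 55 pathway genes passed, 1 passed with no filter, 2 with DESeq2, 6 with the 4-digit libraries, and 0 to 3 on leaving out 1 library. All LSK genes past the test numbered 3, against 343 with no filter, 679 with DESeq2, 0 with voom, 882 with the 4-digit libraries, 1 without satellite, olfactory receptor, mitochondrial and immunoglobulin genes, and 0 to 1114 on leaving out 1 library. In MSC between genotypes, DESeq2 gave 1 pathway gene and leaving out 1 library 0 to 1; all genes past the test numbered 5 and ran from 0 to 71. The same ran from 2 to 22 in EC (4), from 3 to 17 in OBC (14) and from 2 to 15 for the interaction (6). Between populations, EC had 8 pathway genes with no filter and 4 to 8 on leaving out 1 library, OBC 4 to 7, and MSC 1 with DESeq2. Among differences that did not pass, Gpx3 in EC (-0.01) turned to 0.0023 with DESeq2 and 0.0223 without haemoglobin, mitochondrial, ribosomal RNA and immunoglobulin genes, and Gpx1 in OBC against the others (-0.04) to 0.0882 with voom. On leaving out 1 library, signs turned for Gpx1 in LSK (-0.25 to 0.0302), Gpx1 in EC (-1.15 to 0.94), Gpx3 in EC (-1.59 to 0.80), Gpx1 in EC, OBC and MSC against the others (-0.45 to 0.61, -0.39 to 0.32 and -0.57 to 0.14) and Gpx3 in MSC against the others (-0.22 to 0.64). The causes were not tested. Gpx3 in OBC and EC against the others stayed past the test in all 22 alternatives each. In the main fit the filter admitted it through the OBC libraries, where it is high.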
